A study of Mus musculus with 5 samples.

Results

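The cellular defence against oxidants and metals was followed in 10 genes across 5 mouse arrays: the transcription factor gene Nfe2l2, which encodes NRF2, its classical targets Hmox1, Nqo1, Gclm, Gclc, Txnrd1, Srxn1 and Slc7a11, and the metallothionein genes Mt1 and Mt2. They were taken by the gene name given for each probe on the array, which gave 10 of 37074 gene names and 17 of 56605 probes. The study asked how the endothelium of liver tumors differs from that of healthy liver. Liver sinusoidal endothelial cells (LSECs), tumor endothelial cells (TECs) sorted with CD31 beads from orthotopic HAK-1B, Hepa1-6 or KYN-2 tumors, and Hepa1-6 cells in culture gave 1 array each, 5 arrays in all. Hepa1-6 is a hepatoma line of the mouse, while HAK-1B and KYN-2 come from human hepatoma, so that the cells read as mouse endothelium in these TECs came from mice that carried human tumor cells. The labels gave strain C57BL/6 for LSEC and all 3 TECs and C57L for the cultured cells, whereas the methods named female 6-week-old C57BL/6 or BALB/c nu/nu nude mice without tying a strain to a tumor. The methods also named another human line in place of HAK-1B for the arrays, and the labels were followed here. No drug or microRNA treatment applied to any of these 5 samples, and whether animals were pooled is not given in the sources used here.

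NRF2 is held at low levels by KEAP1, which marks it for degradation, and oxidants or electrophiles release it. It then binds, together with a small MAF protein, to antioxidant response elements (AREs) near genes that make glutathione, reduce thioredoxin, break down heme and detoxify quinones. Metallothioneins are small cysteine-rich proteins that bind zinc and copper, and their genes carry metal response elements (MREs) that the zinc-sensing factor MTF1 reads. In the liver, both systems act in hepatocytes, and Hmox1 is also a known gene of macrophages that clear red cells.

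With 1 array per condition no test between conditions can be made, so that every difference below is a comparison of these arrays with no replicate check. Levels are log2 processed signals after quantile normalization over the 5 arrays, and 1 unit is a 2-fold change. Each gene is given by its brightest probe on average, a difference was called from 2-fold, and the spread over the 3 TECs is given as SD (n = 3). That spread is between tumor lines and includes no repeat of LSEC, which all 3 ratios share. Repeated spots of the same probe differed by a median SD of 0.0382 to 0.0446 on the log2 scale, which measures the array and not the biology. Between 44.6% and 78.1% of probes were well above background, with the highest share on the Hepa1-6 TEC array. The 5 arrays lay on 3 slides, with the 3 TECs together on 1, LSEC alone on another and cultured cells alone on the last, and so the slide cannot be told apart from the group.

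The sorted cells were checked against marker genes. All 12 pan-endothelial markers were well above background on LSEC and on each TEC array, and 3 of 12 were on the cultured cells' array. Their summed signal was 18.91 on the log2 scale in LSEC and 16.14 to 17.09 in the TECs, and 9 of 12 were at least 2-fold lower than LSEC in all 3 TECs. The 12 macrophage and Kupffer cell markers were also all well above background on these 4 arrays, with summed log2 signals of 19.85 in LSEC and 18.91 to 19.70 in the TECs. Of these, 5 were at least 2-fold lower in all 3 TECs, among them Clec4f, a Kupffer cell lectin, at log2 levels of 17.07 in LSEC and 11.50 (HAK-1B), 15.05 (Hepa1-6) and 14.45 (KYN-2) in the TECs. The 12 hepatocyte markers summed to 15.92 in LSEC, 16.24 in Hepa1-6 TEC, 15.20 in cultured cells and 11.84 and 11.21 in the TECs of KYN-2 and HAK-1B. The 10 neutrophil markers summed to 11.35 in LSEC and to 17.14 (HAK-1B), 14.78 (Hepa1-6) and 12.34 (KYN-2) in the TECs. Stellate cell and fibroblast markers summed to 13.68 in LSEC, 14.57 to 15.54 in the TECs and 16.94 in cultured cells. One of them, Dcn, read 16.74 in cultured cells and 14.72 in Hepa1-6 TEC, so that this sum does not separate stromal cells from Hepa1-6 tumor cells. Erythroid markers summed to 17.85 in LSEC and 12.49 to 16.99 in the TECs. The arrays thus hold RNA of other cells than endothelium, its part in the results below was not tested, and fewer cells of a type and less RNA per cell cannot be told apart.

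Taken as a group, the 10 genes did not move one way between LSEC and tumor endothelium. Slc7a11 was at least 2-fold higher than LSEC in all 3 TECs, against 5.34% of all genes tested, and Nqo1 was at least 2-fold lower in all 3, against 8.1%. Only 2 of 10 genes, Txnrd1 and Slc7a11, had all 3 TECs above LSEC, where 26.4% of all genes did, and 1, Nqo1, had all 3 below, where 28.2% did. For the other 7 genes the LSEC level lay within the range of the TECs. The median over the 10 genes of the mean log2 ratio of the 3 TECs was 0.23, and over all genes tested it was 0.09.

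The calls among the 10 genes are given for each tumor line by itself. In HAK-1B TEC 3 genes were at least 2-fold higher than LSEC (Txnrd1, Srxn1 and Slc7a11), against 17.2% of all genes tested, and 1 was lower (Nqo1), against 17.7%. In Hepa1-6 TEC 2 were higher (Slc7a11 and Mt2), against 25.0%, and Nqo1 was lower, against 22.8%. In KYN-2 TEC 5 were higher (Hmox1, Gclm, Txnrd1, Srxn1 and Slc7a11), against 16.9%, and Nqo1 was lower, against 18.3%. These counts hold calls near the 2-fold line. Hmox1 had log2 ratios of 1.003 in KYN-2 TEC, with −0.11 on its second probe, and −0.995 in HAK-1B TEC. With scaling to the 75th percentile, Mt2 in KYN-2 TEC (1.20) and Nfe2l2 in HAK-1B TEC (1.20) also passed 2-fold. Nqo1 in Hepa1-6 TEC (−0.97) then did not. The median log2 ratio to LSEC of the 10 genes was 0.89 for KYN-2 TEC, 0.20 for Hepa1-6 TEC and −0.07 for HAK-1B TEC. The 3 TECs spanned a median of 1.80 log2 units over the 10 genes and 0.77 over the 14874 genes well above background on all 5 arrays. The 10 genes were not filtered in that way, and Slc7a11 would not have passed, so that these medians are not of like sets.

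**Figure D1:**
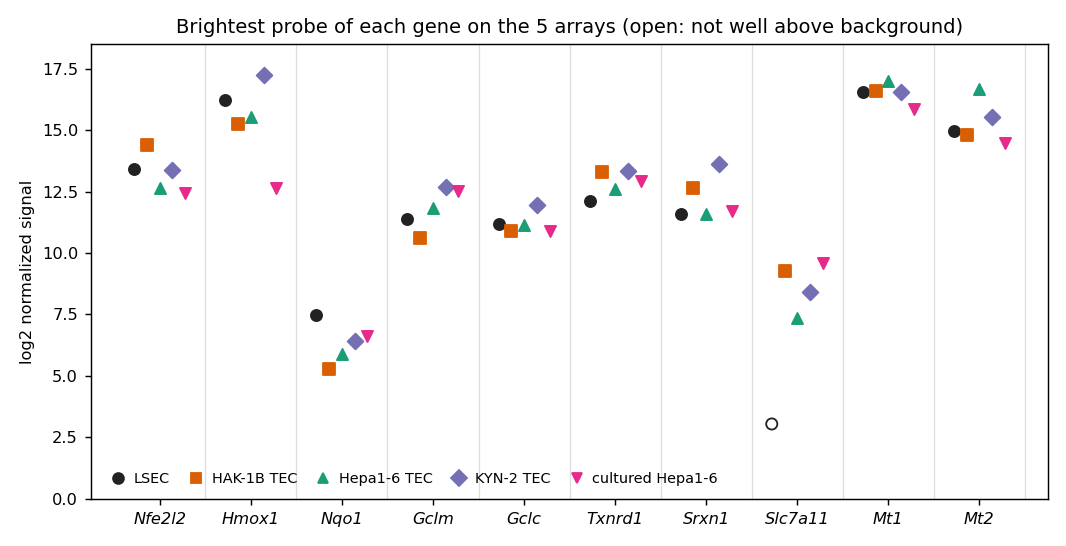
Log2 normalized signal (vertical axis) of the brightest probe of each gene on the 5 arrays, 1 point per array and open where the probe was not well above background. Slc7a11 is open in LSEC alone, at 3.05, Hmox1 is lowest in cultured cells, at 12.63, and heights of different genes come from different probes and are not comparable.

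**Figure D2:**
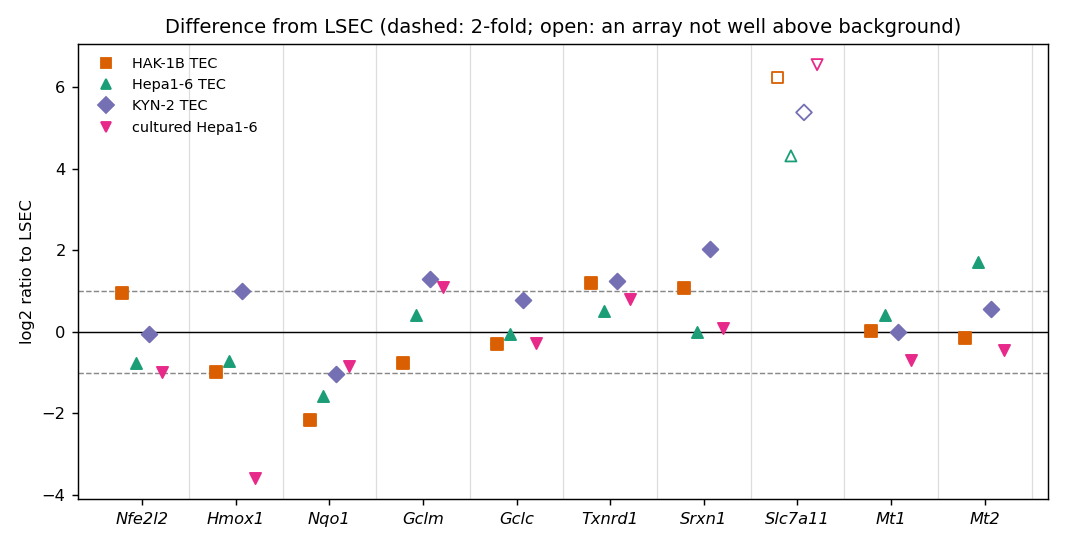
Log2 ratio to LSEC (vertical axis) of each gene in the 3 TECs and the cultured cells, 1 point per array, with dashed lines at 2-fold. The 3 TECs are below −1 for Nqo1, and the open Slc7a11 points lie from 4.32 to 6.56 and rest on a LSEC signal that was not well above background.

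Nfe2l2 itself was measured by a probe for NM_010902 on chromosome 2 (mm9 chr2:75513771-75513830, minus strand), the first of 2. Its log2 level was 13.43 in LSEC, 14.38 in HAK-1B TEC, 12.66 in Hepa1-6 TEC, 13.39 in KYN-2 TEC and 12.44 in cultured cells. The TECs thus lay on both sides of LSEC, with a mean log2 ratio of 0.04 ± 0.87 (SD, n = 3), and HAK-1B TEC was 3.31-fold above Hepa1-6 TEC. The array measures the mRNA and not the NRF2 protein, which KEAP1 controls after translation. The other probe (chr2:75529291-75529350) gave log2 ratios of 1.21, 0.05 and 0.28 in the same order of TECs, highest in HAK-1B TEC as with the first probe, and −1.49 in cultured cells.

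All 14 regulators and partners of NRF2 were well above background on at least 1 of the 4 endothelial arrays. In all 3 TECs 1 was at least 2-fold higher, against 5.34% of all genes tested, and 1 at least 2-fold lower, against 8.1%. The higher one was Maff, which encodes a small MAF partner protein, at a log2 level of 9.07 in LSEC, 12.39 (HAK-1B), 11.36 (Hepa1-6) and 11.88 (KYN-2) in the TECs and 11.42 in cultured cells. Its mean log2 ratio of 2.80 ± 0.51 (SD, n = 3) in TECs was the largest of the list. The lower one was Btrc, part of a ubiquitin ligase that acts on NRF2, with log2 ratios of −1.65, −1.80 and −1.31. The related factor gene Nfe2l1 had log2 ratios of −1.28, −0.82 and −0.40. Keap1, the sensor, differed from LSEC by a mean log2 ratio of −0.09 ± 0.41 (SD, n = 3), and Mafg, another small MAF gene, by −0.46 ± 0.34. Bach1, which encodes a repressor at AREs, had log2 ratios of 0.02, −1.46 and −0.62 and was 3.46 log2 units lower in cultured cells than in LSEC. The median log2 ratio of the list was −0.31.

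Slc7a11 encodes xCT, the transporter subunit that brings in cystine for glutathione synthesis, and it differed most between LSEC and the other arrays. Its main probe (NM_011990, chr3:50176047-50176106, minus strand) had log2 levels of 9.28 in HAK-1B TEC, 7.37 in Hepa1-6 TEC, 8.43 in KYN-2 TEC and 9.61 in cultured cells. In LSEC the probe read 3.05 and was not well above background, so that only a bound can be given. Set against the lowest signal that was well above background on the LSEC array, 4.68 on the log2 scale, Slc7a11 was at least 24.3-fold higher in HAK-1B TEC, at least 6.44-fold higher in Hepa1-6 TEC, at least 13.5-fold higher in KYN-2 TEC and at least 30.4-fold higher in cultured cells. It was the 1 gene of the 10 that passed the methods' rule of size (a ratio of 1.5 with a Z-score of 2) in all 3 TECs in the higher direction, where 0.65% of genes did. In Hepa1-6 TEC a Z-score of 2 took an 11.4-fold rise, more than the bound of 6.44-fold. Slc7a11 thus passed there only by its ratio to a LSEC reading that was not well above background. With the normexp background correction its log2 ratios were 3.30, 1.68 and 2.51, and with that correction or with the mean of all its probes it no longer passed in all 3. None of the 10 genes passed in the lower direction, where 1.2% did.

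The 3 other Slc7a11 probes read different parts of the locus. The one at chr3:50169700-50169759 was also not well above background in LSEC and was at least 14.8-fold higher for HAK-1B and at least 6.06-fold higher for KYN-2 TEC, but for Hepa1-6 TEC its log2 level was 4.13 and no fold can be given. The one at chr3:50246786-50246845 exceeded LSEC at least 10.3-fold for HAK-1B TEC, 5.48-fold for Hepa1-6 TEC and 3.44-fold for KYN-2 TEC. The one at chr3:50221136-50221195 was not well above background on any array. Slc3a2, the partner chain of xCT, was at log2 levels of 14.34 in LSEC and 15.03, 14.28 and 14.82 in the TECs, within 0.69 log2 units of LSEC. Hepa1-6 TEC, with the lowest Slc7a11 level of the TECs, was 2.24 log2 units below the cultured tumor cells of the same line.

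**Figure D3:**
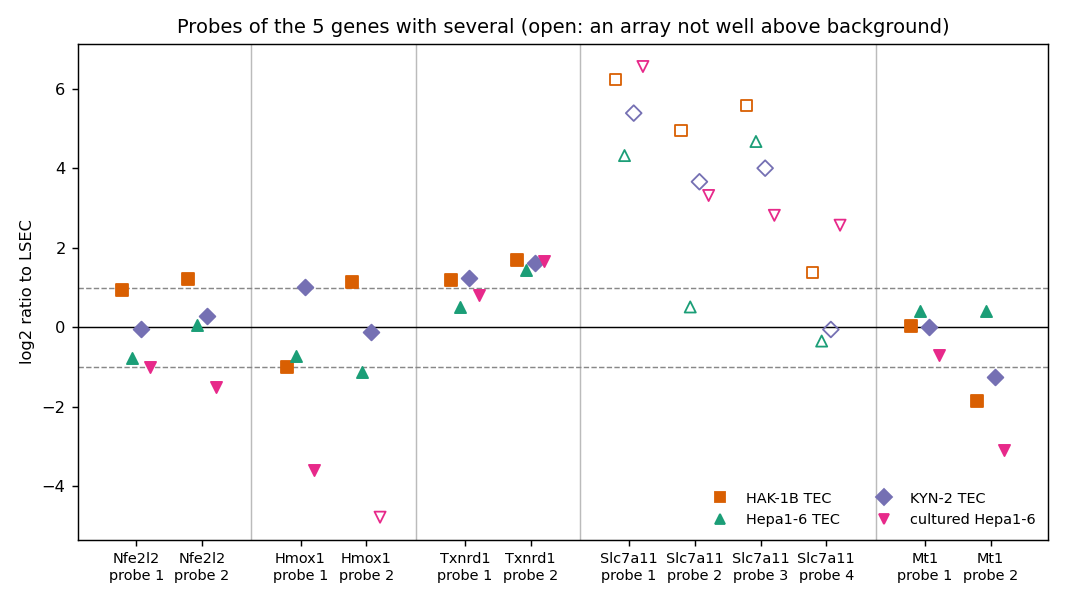
Log2 ratio to LSEC (vertical axis) for every probe of the 5 genes with more than 1, 1 point per array and open where an array was not well above background. The 2 Hmox1 probes order the TECs differently, with HAK-1B TEC at −0.995 on probe 1 and 1.13 on probe 2, and Mt1 in HAK-1B TEC lies at 0.03 on probe 1 and at −1.86 on probe 2.

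Gclc and Gclm encode the catalytic and modifier subunits of glutamate-cysteine ligase, the first and rate-limiting enzyme of glutathione synthesis. Gclm (NM_008129, chr3:121967737-121967796) was at log2 levels of 11.39 in LSEC, 10.63 in HAK-1B TEC, 11.82 in Hepa1-6 TEC, 12.70 in KYN-2 TEC and 12.50 in cultured cells. KYN-2 TEC was thus 2.48-fold above LSEC, HAK-1B TEC was 1.70-fold below it, and the distance between these 2 TECs was 4.21-fold. Gclc (NM_010295, chr9:77641296-77641355) was flatter, at 11.17 in LSEC, 10.88 (HAK-1B), 11.12 (Hepa1-6) and 11.94 (KYN-2) in the TECs and 10.89 in cultured cells. No Gclc difference reached 2-fold against LSEC. Both subunits were highest in KYN-2 TEC and lower in HAK-1B TEC than in LSEC.

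Among 13 genes of glutathione supply and use, the median log2 ratio was 0.37. None was at least 2-fold higher than LSEC in all 3 TECs, against 5.34% of all genes tested, and none was lower, against 8.1%. Gpx2, a selenium-dependent glutathione peroxidase that is also an NRF2 target and is counted under both lists, was at log2 levels of 9.15 in LSEC, 8.49 in HAK-1B TEC, 14.07 in Hepa1-6 TEC, 11.53 in KYN-2 TEC and 7.42 in cultured cells. It was therefore 4.93 log2 units above LSEC in Hepa1-6 TEC and 0.65 below it in HAK-1B TEC. Glrx, a glutaredoxin, had log2 ratios of 2.40, 0.79 and 1.97, and Cth, which makes cysteine from cystathionine, was not well above background in HAK-1B and KYN-2 TEC and equal to LSEC in Hepa1-6 TEC, both at 6.02.

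Txnrd1 and Srxn1 act in the thioredoxin system, Txnrd1 as the reductase of cytosolic thioredoxin and Srxn1, sulfiredoxin, as the enzyme that repairs over-oxidized peroxiredoxins. Txnrd1 (NM_001042523, chr10:82360230-82360289) was at log2 levels of 12.11 in LSEC, 13.29 in HAK-1B TEC, 12.61 in Hepa1-6 TEC, 13.35 in KYN-2 TEC and 12.92 in cultured cells. LSEC was the lowest of the 5 arrays, and the mean log2 ratio of the TECs was 0.98 ± 0.41 (SD, n = 3). A second probe of the same transcript (chr10:82338379-82338438) gave log2 levels of 9.98 in LSEC and 11.68, 11.44 and 11.61 in the TECs, more than 2-fold above LSEC in each. On the main probe the Hepa1-6 TEC difference was 1.42-fold, so that the call for Txnrd1 in all 3 TECs depends on the probe.

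Srxn1 (NM_029688, chr2:151937009-151937068) was at log2 levels of 11.60 in LSEC, 12.66 in HAK-1B TEC, 11.59 in Hepa1-6 TEC, 13.63 in KYN-2 TEC and 11.70 in cultured cells. It was 2.09-fold above LSEC in HAK-1B TEC and 4.08-fold in KYN-2 TEC, whereas Hepa1-6 TEC, cultured Hepa1-6 cells and LSEC lay within 0.11 log2 units of each other. With Slc7a11, Txnrd1 and Srxn1 made 3 of 10 genes at least 2-fold higher in both TECs of human tumor lines, where 9.75% of all genes tested were. Slc7a11 was also called in Hepa1-6 TEC, and Txnrd1 was 2.73-fold above LSEC there on its second probe.

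Of 12 thioredoxin and peroxiredoxin genes, none was at least 2-fold higher in all 3 TECs, against 5.34% of all genes tested. Txnip, which encodes an inhibitor of thioredoxin, was the 1 at least 2-fold lower in all 3, against 8.1%. Its log2 level was 16.56 in LSEC, 13.94, 14.39 and 14.42 in the TECs and 11.72 in cultured cells, a mean log2 ratio of −2.31 ± 0.27 (SD, n = 3) in the TECs. Txnrd3, another thioredoxin reductase, had log2 ratios of 0.77, 2.13 and 1.55, and Prdx3, the mitochondrial peroxiredoxin, of 0.73, 1.58 and 0.66. The median log2 ratio of the list was 0.33. Of 7 enzymes that make or remove superoxide and peroxide, none was called in all 3 TECs, where 5.34% of all genes tested were higher and 8.1% lower. Sod1 (cytosolic superoxide dismutase), Cat (catalase) and Nox4 (an NADPH oxidase) had mean log2 ratios of −0.80 ± 0.56, −0.88 ± 0.45 and −0.92 ± 0.30 (SD, n = 3 each), and the median of the list was −0.12.

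The promoters of these genes were read for the letters of the ARE core, TGANNNNGC, on both strands, since NRF2 targets are defined by this element. RefSeq windows of 300 bases (250 before and 50 after the annotated start, GRCm38.p6) were matched by symbol for 8 of the 10 genes, in 10 windows because Txnrd1 had 3. The windows of Hmox1 and Gclc were not used here. The letters were in 7 of the 10 windows, from 6 of the 8 genes, and in 41.3% of all 32851 windows, so that the core alone is common. The narrower form TGACNNNGC, which is contained in the first, was in 5 of the 10 windows and in 12.4% of all windows. A match is a run of letters and not a shown binding site. The 250 bases before the start are given 5′ to 3′ for the 4 target genes discussed above whose windows held a match, with the ARE core letters on either strand in capitals, for Slc7a11 (chr3:50443614-50443863, minus strand), Srxn1 (chr2:152105274-152105523, plus strand), Gclm (chr3:122245307-122245556, plus strand) and the second Txnrd1 window (chr10:82858956-82859205, plus strand).
Slc7a11: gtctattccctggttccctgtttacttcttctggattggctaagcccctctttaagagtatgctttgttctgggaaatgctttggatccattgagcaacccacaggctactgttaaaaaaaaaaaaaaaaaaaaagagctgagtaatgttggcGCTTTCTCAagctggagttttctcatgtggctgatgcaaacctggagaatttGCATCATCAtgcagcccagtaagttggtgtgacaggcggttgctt
Srxn1: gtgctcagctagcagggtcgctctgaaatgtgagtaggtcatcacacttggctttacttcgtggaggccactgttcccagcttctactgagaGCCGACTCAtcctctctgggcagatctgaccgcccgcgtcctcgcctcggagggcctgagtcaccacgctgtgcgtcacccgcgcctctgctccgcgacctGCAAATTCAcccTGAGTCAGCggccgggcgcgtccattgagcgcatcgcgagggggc
Gclm: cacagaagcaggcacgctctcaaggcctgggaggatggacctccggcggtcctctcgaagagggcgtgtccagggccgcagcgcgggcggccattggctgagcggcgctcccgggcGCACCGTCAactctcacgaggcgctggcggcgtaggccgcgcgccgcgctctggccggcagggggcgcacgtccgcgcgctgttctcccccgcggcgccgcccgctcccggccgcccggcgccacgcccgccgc
Txnrd1: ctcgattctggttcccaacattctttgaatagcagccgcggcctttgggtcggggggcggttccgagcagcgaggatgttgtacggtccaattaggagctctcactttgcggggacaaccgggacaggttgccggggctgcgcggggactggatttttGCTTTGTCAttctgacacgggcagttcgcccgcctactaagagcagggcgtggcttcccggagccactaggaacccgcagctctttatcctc

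Before the start, Srxn1 held 3 matches, beginning at −158, −57 and −45, and Slc7a11 held 2, at −97 and −45. Gclm held 1 match at −134, and Txnrd1 held 1 at −92 in its second window and 1 at −84 in the last. Srxn1 and Slc7a11 each held a further match after the start, at 29 and 42. Nfe2l2 held 1 match at −240 and Mt2 1 at −79, both of the narrower form. No match was found in the windows of Nqo1 and Mt1 or in the first Txnrd1 window.

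**Figure D4:**
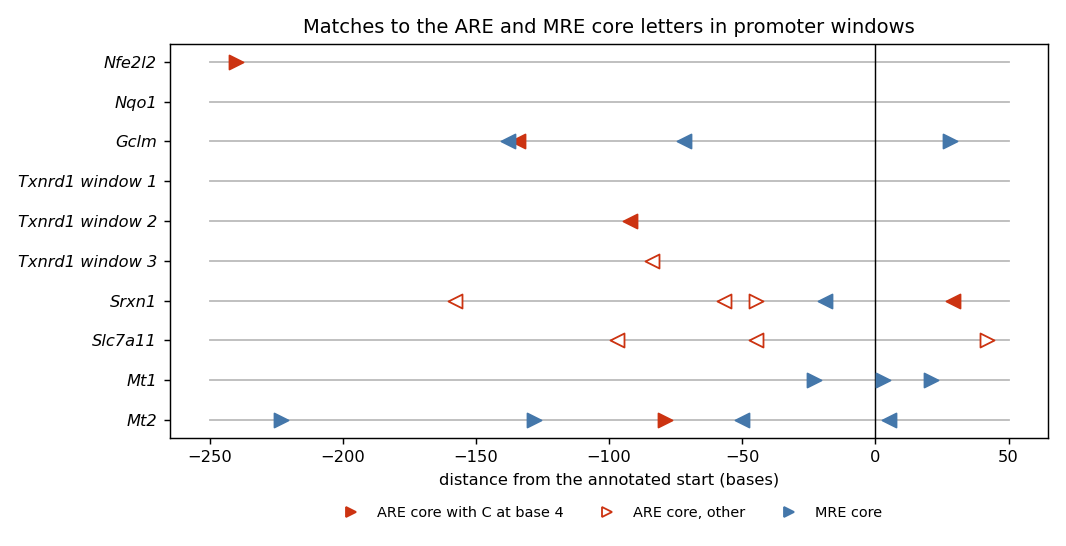
Position of each match to the ARE core (red) and MRE core (blue) letters in the 10 promoter windows, in bases from the annotated start (horizontal axis), with the arrowhead showing the strand. Red is filled where the fourth base is C, as at −240 in Nfe2l2, −134 in Gclm and −79 in Mt2, and the grey lines show the windows.

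Hmox1 encodes heme oxygenase 1, which opens the heme ring and frees iron. Its main probe (NM_010442, chr8:77624406-77624466) was at log2 levels of 16.22 in LSEC, 15.23 in HAK-1B TEC, 15.51 in Hepa1-6 TEC, 17.23 in KYN-2 TEC and 12.63 in cultured cells. The TECs thus moved in opposite directions, with HAK-1B TEC 1.99-fold below LSEC and KYN-2 TEC 2.0-fold above it. Cultured Hepa1-6 cells were 3.60 log2 units below LSEC and 2.88 below Hepa1-6 TEC. The other probe, for a different transcript at chr8:77620085-77620144, placed HAK-1B TEC 2.19-fold above LSEC, KYN-2 TEC 1.08-fold below it and Hepa1-6 TEC 2.16-fold below it, so that the order of the TECs is not the same for both probes. In cultured cells it was not well above background, at least 2.70-fold below LSEC.

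Of the genes of heme and iron handling, 17 were on the array, with a median log2 ratio of −0.06. In all 3 TECs 2 were at least 2-fold lower than LSEC, against 8.1% of all genes tested, and none was higher, against 5.34%. Slc40a1, the iron exporter ferroportin, was at log2 levels of 15.65 in LSEC and 10.73 (HAK-1B), 13.94 (Hepa1-6) and 13.73 (KYN-2) in the TECs. Cd163, the hemoglobin-haptoglobin receptor of macrophages, was at 14.48 in LSEC and 10.39, 12.73 and 11.10 in the TECs. These 2 genes were lower in KYN-2 TEC than in LSEC while Hmox1 was higher on its main probe. Of the 12 macrophage and Kupffer cell markers, the 5 at least 2-fold lower in all 3 TECs were Clec4f, Timd4, Vsig4, Cd5l and Marco. Another of that list was Lyz2, a lysozyme gene of myeloid cells, with log2 levels of 17.45 in LSEC and 18.28 (HAK-1B), 17.47 (Hepa1-6) and 17.85 (KYN-2) in the TECs. In KYN-2 TEC 1 of the 12 markers was at least 2-fold higher than LSEC, against 16.9% of all genes tested, and 6 were lower, against 18.3%. The higher one was Cd68, at 14.50 in LSEC and 15.35 (HAK-1B), 14.62 (Hepa1-6) and 15.75 (KYN-2) in the TECs. Hp, haptoglobin, was above LSEC in HAK-1B TEC, by 3.18 log2 units, and in Hepa1-6 TEC, by 2.28, with a log2 ratio of −0.63 in KYN-2 TEC. The part of macrophages in the Hmox1 levels was not tested.

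Nqo1 encodes a quinone reductase that is often used as a readout of NRF2. Its single probe (NM_008706, chr8:109912440-109912499, minus strand) was at log2 levels of 7.46 in LSEC, 5.29 in HAK-1B TEC, 5.87 in Hepa1-6 TEC, 6.43 in KYN-2 TEC and 6.61 in cultured cells. LSEC was the highest of the 5 arrays, and the TECs were 4.50-fold, 3.0-fold and 2.04-fold lower. The mean log2 ratio was −1.60 ± 0.57 (SD, n = 3). The signals were dim, from 36.1 to 195.5 units before normalization. With the normexp background correction the 3 log2 ratios were −1.18, −0.89 and −0.68, still all below LSEC but no longer all past 2-fold. KYN-2 TEC lay just inside the 2-fold line, at −1.03, and also crossed it when the arrays were normalized without the cultured cells, at −0.99.

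Of 38 other NRF2 target genes on the array, 37 were well above background on at least 1 of the 4 endothelial arrays. In all 3 TECs 1 was at least 2-fold higher, against 5.34% of all genes tested, and 2 were lower, against 8.1%. The lower ones were Gstm2, a glutathione transferase, with log2 ratios of −3.71, −2.08 and −2.24, and Akr1b8, an aldo-keto reductase, with −2.79, −1.82 and −1.49. The higher one, Pgd, which makes NADPH in the pentose phosphate pathway, is named because it was the only one and after its value was seen. The HAK-1B array had 12 of 36 genes at least 2-fold lower, against 17.7% of all genes tested, and 2 higher, against 17.2%. The Hepa1-6 TEC array had 3 lower, against 22.8%, and 11 higher, against 25.0%. KYN-2 TEC had 5 of 35 lower, against 18.3%, and 4 higher, against 16.9%. The medians of the list were −0.50, 0.29 and 0.19 on the log2 scale. The summed hepatocyte markers ordered the TECs in the same way, highest in Hepa1-6 TEC and lowest in HAK-1B TEC. Cultured Hepa1-6 cells also had such signal, at 15.20, and the part of hepatocytes or of tumor cells was not tested.

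**Figure D5:**
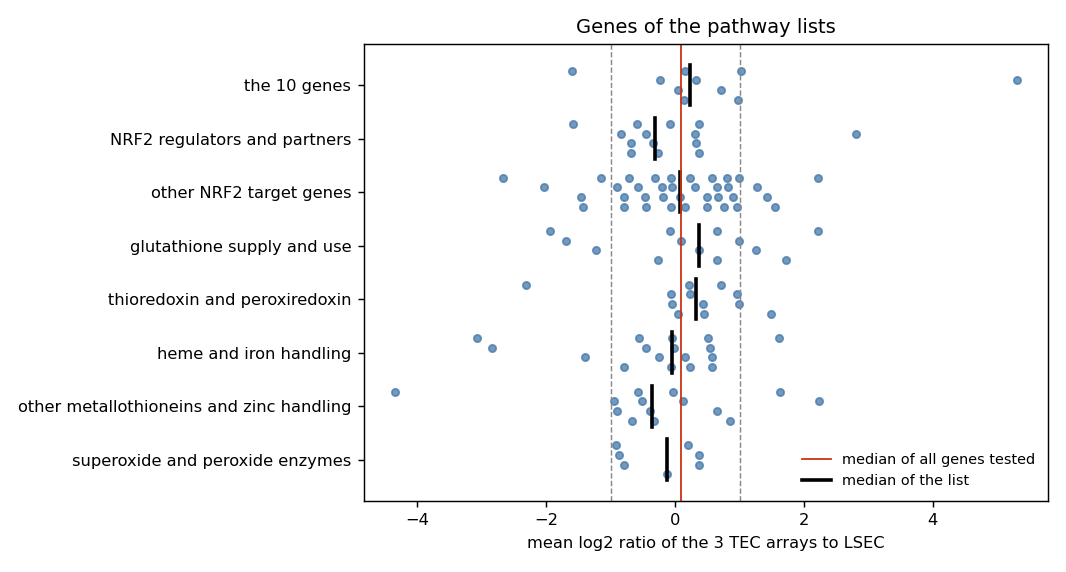
Mean log2 ratio of the 3 TEC arrays to LSEC (horizontal axis) for each gene of the pathway lists that was well above background on at least 1 of these 4 arrays, with list medians as black bars and the median of all genes tested, 0.09, as a red line. List medians lie from −0.36 to 0.37, and single genes such as Slc39a8 at −4.35 and Slc7a11 at 5.31 lie far outside, where the Slc7a11 value rests on a LSEC signal not well above background.

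Mt1 and Mt2 encode the 2 widely expressed metallothioneins and are neighbours on chromosome 8. Mt1 (NM_013602, chr8:96704165-96704224) was at log2 levels of 16.57 in LSEC, 16.59 in HAK-1B TEC, 16.98 in Hepa1-6 TEC, 16.57 in KYN-2 TEC and 15.86 in cultured cells. No TEC differed from LSEC by more than 0.41 log2 units. No probe on any array was saturated. A second Mt1 probe, for a predicted transcript at chr8:96703844-96703903, was at log2 levels of 10.87 in LSEC, 9.01 in HAK-1B TEC, 11.27 in Hepa1-6 TEC, 9.63 in KYN-2 TEC and 7.78 in cultured cells, so that 2 TECs were more than 2-fold below LSEC on that probe. Both probes placed Hepa1-6 TEC highest and cultured cells lowest, except that with scaling to the 75th percentile the main probe placed cultured cells 0.23 log2 units above LSEC.

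Mt2 (NM_008630, chr8:96697371-96697430) was at log2 levels of 14.95 in LSEC, 14.79 in HAK-1B TEC, 16.66 in Hepa1-6 TEC, 15.51 in KYN-2 TEC and 14.49 in cultured cells. Hepa1-6 TEC was 3.28-fold above LSEC and 4.49-fold above cultured cells of the same tumor line, and HAK-1B TEC and LSEC differed by 0.16 log2 units. Cultured cells were 0.45 log2 units below LSEC, and 0.41 above it with scaling to the 75th percentile. Hepatocytes express both metallothioneins. The hepatocyte markers summed to log2 signals of 16.24 in Hepa1-6 TEC, 15.92 in LSEC and 15.20 in cultured cells. Of these 12 markers, 3 were at least 2-fold higher in Hepa1-6 TEC than in LSEC, against 25.0% of all genes tested. Another 5 were at least 2-fold lower, against 22.8%. The 3 were Alb, Fgb and Hnf4a, which read 13.94, 12.61 and 13.52 in the cultured tumor cells. The part of hepatocytes or of tumor cells in the Mt2 level was not tested.

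The MRE core was searched as TGCACNC and TGCGCNC on both strands, forms held by 12.6% and 15.4% of all windows and by 25.7% for either. Of the 10 windows 4 held one, those of Mt1, Mt2, Gclm and Srxn1. The 250 bases before the start of both metallothionein genes are given 5′ to 3′ with these letters in capitals, since the 2 windows differ in number and place of the matches relative to their annotated starts (Mt1, chr8:94178839-94179088 and Mt2, chr8:94172368-94172617, both GRCm38.p6 and on the plus strand).
Mt1: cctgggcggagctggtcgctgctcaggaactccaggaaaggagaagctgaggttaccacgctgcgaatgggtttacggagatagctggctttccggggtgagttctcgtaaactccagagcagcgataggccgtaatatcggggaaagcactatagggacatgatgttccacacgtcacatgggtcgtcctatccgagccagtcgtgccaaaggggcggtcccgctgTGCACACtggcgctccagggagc
Mt2: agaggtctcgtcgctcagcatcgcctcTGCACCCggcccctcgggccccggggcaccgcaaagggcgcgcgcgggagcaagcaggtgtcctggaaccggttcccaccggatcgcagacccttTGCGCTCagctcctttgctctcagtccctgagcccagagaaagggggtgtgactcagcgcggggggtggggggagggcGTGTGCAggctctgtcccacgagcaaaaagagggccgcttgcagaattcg

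Mt1 held 1 MRE core before the start, at −23, and 2 after it, at 3 and 21. Mt2 held 3 before the start, at −223, −128 and −50, and 1 after it, at 5. How many matches lie before the start depends on the annotated start used, and other starts were not examined. The ARE core of Mt2 at −79 overlaps none of these, and is printed in lower case above.

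Of 15 other genes of metallothioneins and zinc handling, 14 were well above background on at least 1 of the 4 endothelial arrays, with a median log2 ratio of −0.36. None was at least 2-fold higher in all 3 TECs, against 5.34% of all genes tested. Slc39a8, which encodes the zinc and manganese importer ZIP8, was the only one at least 2-fold lower in all 3, against 8.1%. Its log2 level was 13.53 in LSEC, 9.09 (HAK-1B), 9.38 (Hepa1-6) and 9.07 (KYN-2) in the TECs and 9.53 in cultured cells, a mean log2 ratio of −4.35 ± 0.17 (SD, n = 3) in TECs. The importer genes Slc39a4 (ZIP4) and Slc39a14 (ZIP14) had log2 ratios of 2.50, 3.46 and 0.75, and of 2.92, 0.81 and 1.17. The exporter gene Slc30a1, itself an MTF1 target, had a mean log2 ratio of −0.90 ± 0.38, and Mtf1 of −0.38 ± 0.03 (SD, n = 3 each).

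Cultured Hepa1-6 cells are the tumor line by itself. Of the 12 pan-endothelial markers, 3 were well above background there (Eng, Esam and Egfl7), and the others, among them Pecam1, Cdh5 and Kdr, were not. Against LSEC, 2 of the 10 genes were at least 2-fold higher (Gclm and Slc7a11), against 27.8% of all genes tested, and 1 was at least 2-fold lower (Hmox1), against 30.6%. Nfe2l2 lay just outside, 1.99-fold lower. Hepa1-6 TEC had 3 genes at least 2-fold higher than the cultured cells (Hmox1, Mt1 and Mt2), against 25.8%, and 1 lower (Slc7a11), against 23.5%. Hmox1 was 7.38-fold higher in Hepa1-6 TEC than in the cultured cells, Mt2 4.49-fold and Mt1 2.17-fold. With scaling to the 75th percentile the Mt1 difference was 0.65 log2 units, below 2-fold, and 2 genes were called.

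Genes with the most similar course over the 5 arrays were named by the distance between their log2 levels, each gene centred on its own mean, among 14874 genes well above background on all 5. For Hmox1 these were Ndrg1 (distance 0.40), Itgb3 (0.44) and Appl2 (0.77), and Ndrg1 had log2 levels of 15.36 in LSEC, 14.81, 14.79 and 16.32 in the TECs and 12.04 in cultured cells. For Nqo1 they were Gm10575 (0.21), Gna11 (0.24) and Fam107a (0.24). For Slc7a11 they were Lamb1 (1.26), Fn1 (1.55) and Sh3pxd2b (1.63), where Lamb1 and Fn1 encode matrix proteins and the 5 Slc7a11 levels spanned 6.56 log2 units. The LSEC reading of Slc7a11 was not well above background, and so this span and its distances are not exact. For Mt2 they were Notum (0.44), a probe for an unnamed transcribed region (0.52) and Pip5k1a (0.54). Among the 10 genes themselves the closest pairs were Gclc with Mt1 (1.03), Gclc with Txnrd1 (1.15), Txnrd1 with Srxn1 (1.16) and Mt1 with Mt2 (1.17). With 5 points that share their arrays these distances are descriptions only.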

How the data were processed

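Gene expression was measured in LSEC, 3 TECs and cultured Hepa1-6 cells with 1 array per condition. The authors labelled amplified RNA with Cy3, hybridized it to an array of 60-base probes and deposited the intensity of each spot, both background-subtracted and raw, the local background, and flags of 0 or 1. The labels name Agilent Feature Extraction 9.5.1.1 and the file headers 10.7.1.1. The deposited table of normalized intensity values was used as an alternative.

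Control spots were left out, spots of 1 probe were averaged, and log2 processed signals were quantile normalized over the 5 arrays (Python 3.11.15, numpy 2.4.6, pandas 2.3.3). Probes whose spots are well above background were taken from the flag for it. Where 1 array was dim, a bound was taken from the dimmest probe that the dim array still flagged well above background, or from the probe's own value where higher. The methods' rule calls a gene higher at a ratio of 1.5 and a Z-score of 2 or more and lower at 0.66 and −2 or less, among probes flagged present on an array compared, without lincRNA probes. The rules of size were run on simulated arrays with little noise and large changes in bright probes. That checks the working of the rules and not the calls made on these arrays. The methods normalize only the samples of each comparison together, which was run as an alternative, and no gene was removed here as cancer-related.

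The 10 genes and the gene lists were chosen with earlier results of these data known. All 10 genes are described by every probe. From each of the 7 other pathway lists (regulators and partners, other targets, glutathione, thioredoxin and peroxiredoxin, heme and iron, zinc, superoxide and peroxide) the text names up to 3 genes with the largest absolute mean ratio, with Keap1, Bach1, Mafg, Slc3a2, Mtf1 and Slc30a1. The 7 marker lists serve as checks. The array design gives probe positions (mm9). Of the 17 probes, 13 name a RefSeq transcript and all 13 were found in RefSeq under the same symbol. Promoter sequences are from RefSeq (GRCm38.p6). The number of arrays limits the precision. Alternatives were other scalings, normexp with an offset of 50 (limma 3.58.1 in R 4.3.3), all probes of a gene, a stricter background filter, and each TEC left out in turn.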

Additional observations from a re-analysis of the deposited data

Results flagged for a closer look

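For 5 of the named genes 1 TEC lay at least 1.5-fold above LSEC and another below it by a ratio of 0.66 or less. The distance between the highest and the lowest TEC on the log2 scale was 1.73 for Nfe2l2 (HAK-1B TEC over Hepa1-6 TEC), 2.0 for Hmox1 and 2.07 for Gclm (both KYN-2 TEC over HAK-1B TEC). It was 5.58 for Gpx2 (Hepa1-6 TEC over HAK-1B TEC) and 3.80 for Hp (HAK-1B TEC over KYN-2 TEC). These values are from the brightest probe. The other Hmox1 probe reversed the order, with KYN-2 TEC 1.24 log2 units below HAK-1B TEC. The other Nfe2l2 probe put no TEC below LSEC, at log2 ratios of 1.21 (HAK-1B), 0.05 (Hepa1-6) and 0.28 (KYN-2). Each tumor line had 1 array, so that these differences were not tested.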

How the results depend on the processing

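No paired analysis was possible because there was a single array for every condition. The median log2 ratio of the 10 genes in the TECs, 0.23, ranged from 0.15 to 0.61 over all alternatives, with each TEC left out in turn giving 0.15 to 0.61. The count of genes at least 2-fold higher in all 3 TECs, 1 as reported, was 0 when only genes well above background on every array compared were kept, which removes Slc7a11, and 1 to 3 with a TEC left out, the 3 being without Hepa1-6 TEC. The count of genes at least 2-fold lower in all 3 TECs, 1 as reported (Nqo1), was 0 with scaling to the 75th percentile, with quantile normalization without the cultured cells and with normexp. In cultured cells against LSEC, the 2 higher genes became 1 with the stricter background filter, and the 1 lower gene became 2 with scaling to the 75th percentile and 3 with the mean of all probes. The 1 gene lower in Hepa1-6 TEC than in cultured cells became 2 with scaling to the 75th percentile. The 3 higher there became 2 with that scaling, without Mt1. The 1 gene passing the methods' rule in all 3 TECs became 0 with normexp, with the mean of all probes and with the stricter background filter. Scaling to the 75th percentile moved the median of all genes from 0.09 to 0.27 in the TECs and from 0.09 to 0.45 in cultured cells, against LSEC. Of 218 single-gene values under alternatives, 203 moved by less than the SD over the 3 TECs and 15 by more, and none past 2-fold changed sign. Many of these values could not have moved by more, so the count does not measure stability. Leaving out 1 of 3 TECs cannot shift their mean by a full SD. The stricter background filter left the values of kept genes unchanged, as did the mean of all probes for genes with 1 probe. The SD over the TECs also does not measure the spread of ratios of cultured cells. Except where stated, the cause was not tested.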
